A study of Mus musculus with 12 samples.

Results

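The heat shock and chaperone genes described here are Hspa1a, Hspa1b, Hspb1, Hsph1, Dnajb1, Dnaja1, Hsp90aa1, Hspa8, Bag3 and Cryab. They were chosen by name, and every probe set annotated with one of these symbols alone was taken, which gave 26 of the 45037 probe sets other than controls and 10 of the 18193 genes with such a probe set. RNA of sorted skeletal progenitors from the bones of mouse pups was measured on 12 arrays. Each of 3 populations, labelled SSC, CSP (BCSP in the series' design) and Thy (Thy+ there), has 2 arrays labelled JUN and 2 labelled -JUN. The labels describe all groups as JUN inducible mice on regular diet. JUN was induced for 2 days by giving the mother doxycycline in drinking water, and the labels do not say whether the -JUN pups received it or which alleles they carry. The titles name mice 4 and 7 for the JUN arrays and mice 3, 3b and 10 for the -JUN arrays. No source used here gives the driver of the transgene, the genotype, the exact age or the strain. Nothing in the labels says that the pups came from separate litters, so a p-value measures only the spread between these arrays. In bulk RNA, fewer cells of a type and less RNA per cell cannot be told apart.

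Heat shock proteins are molecular chaperones, which bind unfolded or misfolded proteins and help them fold or be degraded. HSP70 proteins work in a cycle of ATP binding and hydrolysis that is started by HSP40 (DNAJ) partners and completed by nucleotide exchange factors such as the HSP110 and BAG proteins. Small heat shock proteins hold unfolded proteins in a soluble state without using ATP, and HSP90 completes the folding of kinases and steroid receptors. After heat or other protein damage, heat shock factor 1 binds heat shock elements, which are inverted repeats of GAA, upstream of several of these genes. JUN is a subunit of the AP-1 transcription factor.

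RefSeq promoter windows of 300 bases on GRCm38.p6 (250 before and 50 after a start) were found for 7 of the 10 genes, in 11 rows. Those of Hsp90aa1, Hspa8 and Cryab were not used here. The motifs GAANNTTC and TTCNNGAA, each its own reverse complement, stand for 2 inverted units. Together they occur in 15.06% of the 32851 windows in the table, GAANNTTC in 7.86% and TTCNNGAA in 8.52%. At least 1 of them was present in a window of 6 of the 7 genes, Dnajb1 being the exception. That count is by gene, some with several rows, whereas the 15.06% is by window. The near-identical Hspa1a and Hspa1b are counted separately in it. Heat shock elements of 3 alternating units with the same spacing, which contain the shorter motifs and were searched on both strands, occur in 0.6027% of windows, and 1 of the 7 genes, Hsph1, had such a match. In Bag3 the match lay after the start, and in Hsph1 matches lay after the start or in an annotated stretch of the gene, so neither is printed. The 250 bases before the start of Hspa1a, Hspb1, Hspa1b and Dnaja1 are shown because their matches lie upstream of the annotated gene, with matches to GAANNTTC in capitals. A match of letters is a description and not a measured binding site.
Hspa1a (chr17:34972157-34972406, minus strand): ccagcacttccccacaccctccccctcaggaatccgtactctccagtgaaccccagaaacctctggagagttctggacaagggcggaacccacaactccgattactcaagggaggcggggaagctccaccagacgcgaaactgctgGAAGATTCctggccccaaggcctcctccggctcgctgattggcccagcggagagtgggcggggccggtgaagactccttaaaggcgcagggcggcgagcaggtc
Hspa1b (chr17:34959239-34959488, minus strand): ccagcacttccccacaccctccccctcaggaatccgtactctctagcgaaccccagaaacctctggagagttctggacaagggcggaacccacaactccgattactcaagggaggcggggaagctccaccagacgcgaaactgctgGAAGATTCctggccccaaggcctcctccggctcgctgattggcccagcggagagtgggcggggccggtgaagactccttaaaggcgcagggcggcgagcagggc
Hspb1 (chr5:135887669-135887918, plus strand): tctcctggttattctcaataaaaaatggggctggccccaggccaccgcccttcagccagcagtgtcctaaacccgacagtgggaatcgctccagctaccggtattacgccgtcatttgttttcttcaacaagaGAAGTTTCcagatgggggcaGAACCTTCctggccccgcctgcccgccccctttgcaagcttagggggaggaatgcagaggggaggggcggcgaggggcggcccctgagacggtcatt
Dnaja1 (chr4:40722218-40722467, plus strand): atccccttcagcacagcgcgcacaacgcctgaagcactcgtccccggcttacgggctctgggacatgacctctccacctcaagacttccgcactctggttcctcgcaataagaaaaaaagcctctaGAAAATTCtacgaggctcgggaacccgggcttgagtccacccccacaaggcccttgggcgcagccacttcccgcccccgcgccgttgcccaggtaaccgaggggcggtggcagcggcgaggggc
The printed bases of Hspa1a and Hspa1b were identical at 247 of 250 aligned bases (98.8%), and both had their match 104 bases before the start. Hspb1 had its matches 117 and 97 bases before the start, and Dnaja1 had its match 124 bases before the start. Hspa1a and Hspa1b are near-identical copies, so probe sets of either can read the RNA of both.

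Values are on the log2 scale after RMA (background correction, quantile normalization and summary of probes), so a difference of 1 is a doubling. They cannot be set against each other between probe sets. All 10 genes passed the filter on dim probe sets and 12516 genes were tested with limma, with Benjamini-Hochberg adjustment over all of them and a threshold of 0.05. The number of arrays limits the precision. Jun itself, read by its brightest probe set, was 13.18 and 12.13 in SSC arrays labelled JUN, against 12.60 and 12.06 in those labelled -JUN. In CSP it was 12.92 and 12.82 in arrays labelled JUN, against 13.37 and 13.24 in those labelled -JUN, which goes against the label. In Thy it was 13.03 and 12.90 in arrays labelled JUN, against 12.81 and 13.65 in those labelled -JUN. Its average difference was -0.13 ± 0.23 (SE, adjusted p = 0.799). Whether this probe set can read the transgene is not given in the sources used here, so it does not check the labels, and every direction given here rests on the labels. Thy1, the surface protein that names the Thy gate, was 12.80 to 13.30 in Thy arrays and 7.28 to 9.63 in the others. Xist, a marker of female cells, was 12.49 to 13.20 in the 3 arrays of mouse 3 and 6.11 to 7.29 in the other 9, so mouse 3, a -JUN animal, differs in sex from the rest. The titles of 3 SSC arrays, those of mice 7, 3 and 10, carry a date and no other title does. What the date marks is not stated, and SSC values therefore rest on mouse 4 alone wherever the dated titles are set apart. The chondrocyte list (8 genes, all higher with JUN on average, none past the threshold) averaged 13.43 to 13.52 in the SSC and CSP arrays of mouse 4 and the CSP array of mouse 3b, and 8.80 to 11.15 in the other 9.

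The series asks what JUN induction does to these progenitors. Among the 10 genes none passed the threshold in SSC, CSP, Thy or their average, where 0% of all genes did in each. At an unadjusted p under 0.05, 0 of the 10 were found in any single population, where the share of all genes was 6.5% for SSC, 2.3% for CSP and 3.04% for Thy. The average had 2 of 10 (12.5% of all genes), Hspb1 as higher (7.85% of all genes) and Dnaja1 as lower (4.68%). The fit for the average, here and for single genes below, takes arrays of the same mouse as independent. The JUN arrays come from mice 4 and 7 and the -JUN arrays from mice 3, 3b and 10. Its p-values therefore do not measure the spread between mice. The test for a JUN effect that differs between populations also passed none of the 10 (0% of all genes, 1.15% unadjusted). The median difference over the 10 genes was 0.41 in SSC, 0.14 in CSP, -0.03 in Thy and 0.22 on average, beside 0.08, 0.07, 0.04 and 0.07 over all genes tested. The medians in SSC, in CSP and on average turned sign without arrays of mouse 4. Without its SSC array the median was -0.048 in SSC and -0.031 on average, without its CSP array it was -0.34 in CSP, and leaving out 1 array moved the Thy median between -0.28 and 0.21. The groups of arrays did not overlap for 3 of the 10 in SSC (38.4% of all genes), with 2 higher (22.7%) and 1 lower (15.7%) with JUN. They did not overlap for 2 in CSP (31.2%), both higher (19.3%, beside 11.9% lower). In Thy 4 did not overlap (28.6%), 1 higher (17.9%) and 3 lower (10.8%).

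Hspa1a encodes a stress-inducible HSP70. Its value was 11.35 and 8.13 in SSC arrays labelled JUN, against 8.83 and 7.76 in those labelled -JUN. The CSP values were 10.93 and 8.99 in arrays labelled JUN, against 10.22 and 9.58 in those labelled -JUN. The Thy values were 10.35 and 9.73 in arrays labelled JUN, against 9.16 and 10.31 in those labelled -JUN. The groups overlapped in all 3 populations, and in each the highest array was that of mouse 4. The difference was 1.44 ± 0.95 in SSC (SE, adjusted p = 0.691), 0.05 in CSP and 0.30 in Thy. The JUN mice of SSC lay further apart than the group means did. Among the 3 SSC arrays with dated titles, which leave out mouse 4, the difference was -0.17.

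Hspa1b, the neighbouring copy, was 11.99 and 9.85 in SSC arrays labelled JUN, against 10.43 and 10.35 in those labelled -JUN. In CSP it was 11.79 and 9.85 in arrays labelled JUN, against 10.46 and 10.32 in those labelled -JUN. In Thy it was 10.53 and 9.74 in arrays labelled JUN, against 9.85 and 10.59 in those labelled -JUN. Mouse 7 was the lowest animal in every population, and mouse 4 was the highest in SSC and CSP. The differences were 0.53 ± 0.72, 0.43 ± 0.72 and -0.09 ± 0.72 (SE) in SSC, CSP and Thy. For both genes the JUN mice lay on either side of the -JUN mice in CSP, and for Hspa1b in SSC too. With mouse 7 left out, the average JUN effect was 1.56 for Hspa1a (adjusted p = 0.0449) and 1.10 for Hspa1b (adjusted p = 0.0415), the 2 of 10 genes under the threshold in a fit where 3.95% of all genes were. The JUN arm is then the 3 arrays of mouse 4, so these p-values take arrays of 1 animal as replicates and do not measure the spread between JUN mice. Probe sets of either copy can read the RNA of both, so the 2 genes are not independent counts. With mouse 4 left out instead, which leaves mouse 7 alone in the JUN arm, Hspa1a was -0.36 (adjusted p = 0.708). Over 13 alternatives to the fit, the adjusted p for Hspa1a ranged between 0.0449 and 0.9999, and the 1 under the threshold was the fit without mouse 7.

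**Figure D1:**
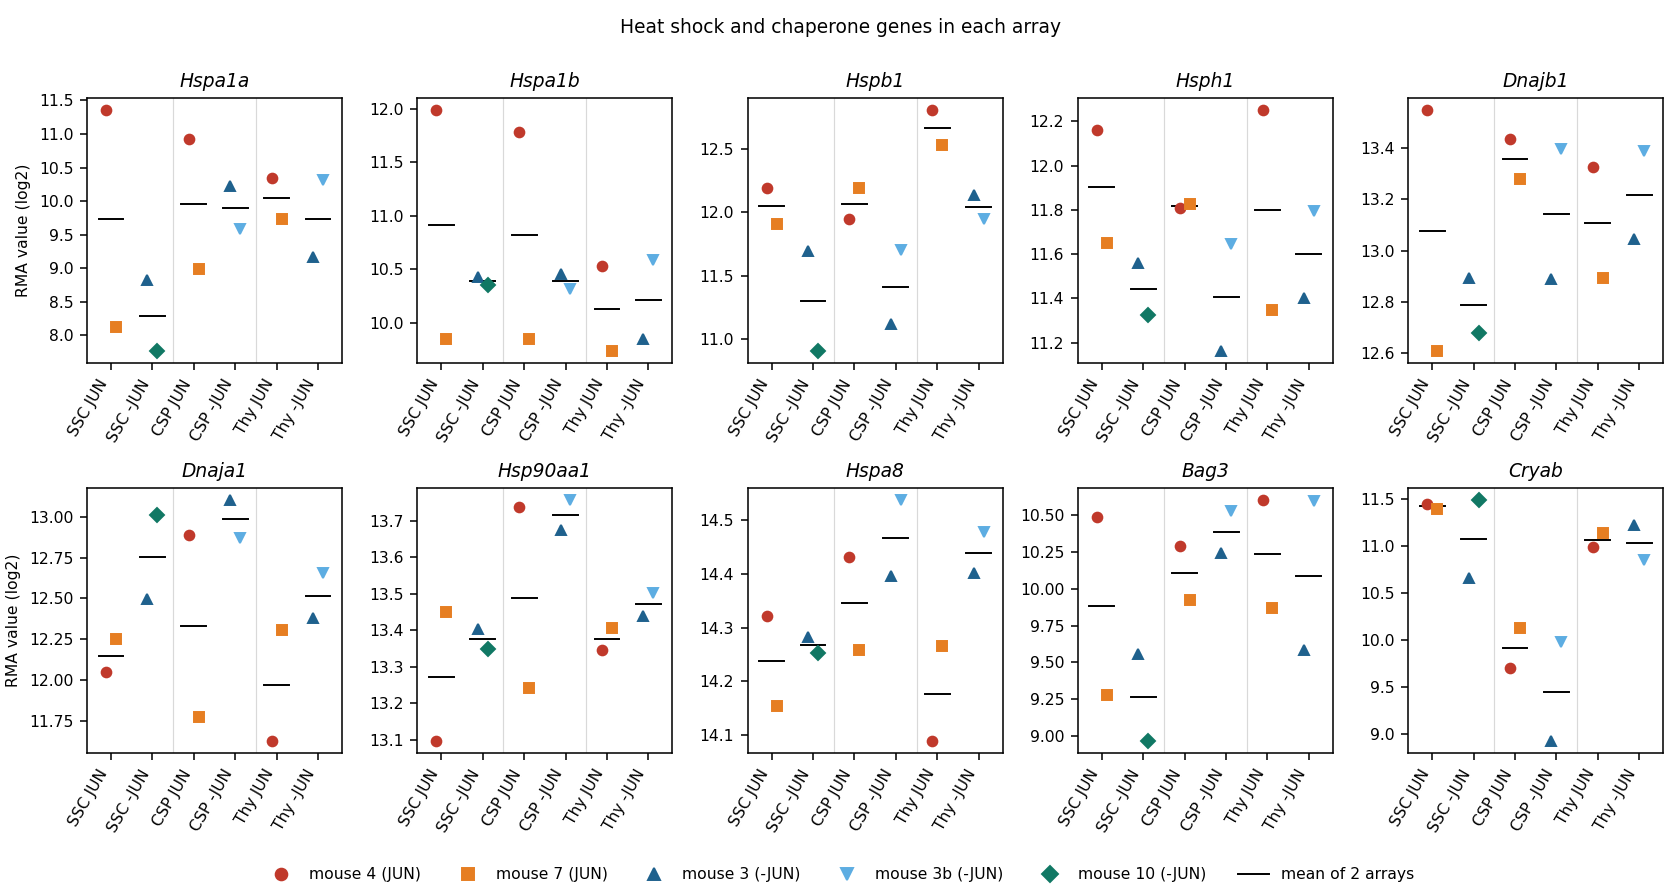
RMA value on the log2 scale (y axis, a separate range in each panel that does not start at 0) of the tested probe set of each of the 10 genes in the 6 groups (x axis). Each symbol is 1 array, its shape and colour give the mouse, and the line is the mean of 2 arrays. Mouse 4 is highest for Hspa1a in every population, and CSP is low for Cryab.

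Dnajb1, an inducible HSP40 that stimulates ATP hydrolysis by HSP70, was 13.55 and 12.61 in SSC arrays labelled JUN, against 12.89 and 12.68 in those labelled -JUN. It was 13.44 and 13.28 in CSP arrays labelled JUN, against 12.89 and 13.40 in those labelled -JUN, and 13.33 and 12.89 in Thy arrays labelled JUN, against 13.04 and 13.39 in those labelled -JUN. All 3 pairs of groups overlapped, and the average difference was 0.13 ± 0.21 (SE, adjusted p = 0.763). Its second probe set gave an average of -0.10 ± 0.34, so the sign was not shared between them.

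Dnaja1, a farnesylated HSP40 of the cytosol, was 12.05 and 12.25 in SSC arrays labelled JUN, against 12.50 and 13.01 in those labelled -JUN. The CSP values were 12.89 and 11.78 in arrays labelled JUN, against 13.10 and 12.87 in those labelled -JUN. The Thy values were 11.63 and 12.31 in arrays labelled JUN, against 12.38 and 12.65 in those labelled -JUN. The JUN arrays lay below the -JUN arrays in SSC and Thy, and overlapped them by 1 array in CSP. Its average difference was -0.60 ± 0.24 (SE, unadjusted p = 0.0279, adjusted p = 0.396), which did not pass. The other 2 probe sets gave -0.72 ± 0.28 and -0.90 ± 0.31. In its dimmest kept probe set the SSC arrays labelled JUN were at 10.11 and 11.19, against 11.48 and 12.01 in those labelled -JUN.

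Hsph1, an HSP110 protein that exchanges nucleotide on HSP70, was 12.16 and 11.65 in SSC arrays labelled JUN, against 11.56 and 11.32 in those labelled -JUN. In CSP it was 11.81 and 11.83 in arrays labelled JUN, against 11.16 and 11.65 in those labelled -JUN. In Thy it was 12.25 and 11.35 in arrays labelled JUN, against 11.40 and 11.79 in those labelled -JUN. In the tested probe set the groups were separate in SSC and CSP and overlapped in Thy. The average difference was 0.36 ± 0.21 (SE, adjusted p = 0.437), whereas the second probe set gave -0.18 ± 0.18. With the level of the poly-A labelling spikes as a covariate the first gave -0.023. In CSP the groups of the second probe set were separate in the other direction, with JUN lower (-0.29), and in SSC and Thy they overlapped. Bag3, a nucleotide exchange factor that links HSP70 to autophagy of damaged proteins, was 10.49 and 9.28 in SSC arrays labelled JUN, against 9.56 and 8.96 in those labelled -JUN. The CSP values were 10.29 and 9.93 in arrays labelled JUN, against 10.24 and 10.53 in those labelled -JUN. The Thy values were 10.60 and 9.87 in arrays labelled JUN, against 9.58 and 10.60 in those labelled -JUN. The Bag3 groups overlapped everywhere, with differences of 0.62, -0.28 and 0.14 (SE 0.49 each).

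Hspa8, the HSP70 that is made without stress, lay between 14.09 and 14.54 over the 12 arrays in its brightest probe set, and its average difference was -0.14 ± 0.15 (SE, adjusted p = 0.646). In Thy its arrays labelled JUN were 14.09 and 14.27, below 14.40 and 14.48 in those labelled -JUN. Its 4 kept probe sets did not move together. The dimmest was 11.23 and 12.67 in SSC arrays labelled JUN, against 12.17 and 12.27 in those labelled -JUN. In CSP it was 10.19 and 12.01 in arrays labelled JUN, against 11.43 and 10.62 in those labelled -JUN. In Thy it was 10.999 and 10.84 in arrays labelled JUN, against 10.68 and 10.55 in those labelled -JUN. That probe set spanned 2.48 on the log2 scale over the 12 arrays, and the brightest spanned 0.45. In the dimmest, SSC lay above Thy by 1.32 ± 0.40 (SE, adjusted p = 0.132 over the kept probe sets), whereas the other 3 gave -0.06, -0.21 and -0.43.

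**Figure D2:**
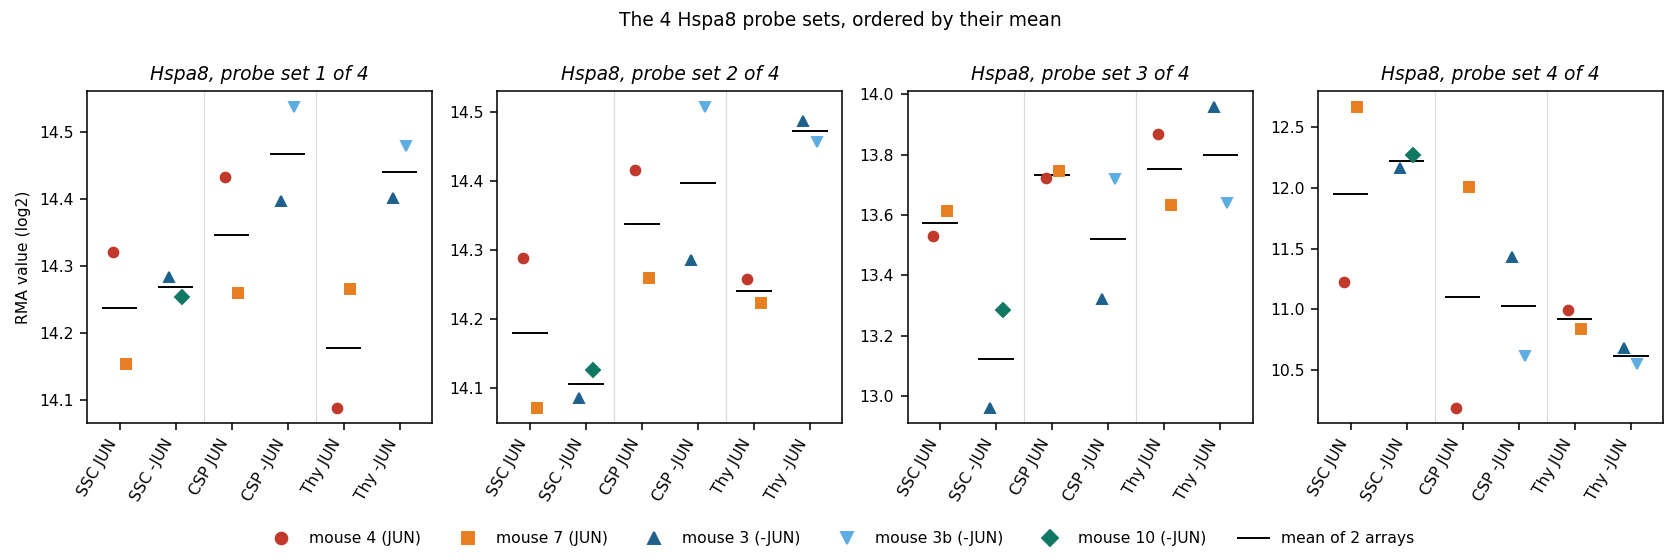
RMA value on the log2 scale (y axis, a separate range in each panel that does not start at 0) of the 4 kept Hspa8 probe sets in the 6 groups (x axis), ordered by their mean. Symbols are arrays, coloured by mouse, and lines are means of 2 arrays. The brightest lies between 14.09 and 14.54, and the dimmest between 10.19 and 12.67.

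Hsp90aa1, the inducible cytosolic HSP90, was 13.10 and 13.45 in SSC arrays labelled JUN, against 13.40 and 13.35 in those labelled -JUN. The CSP values were 13.74 and 13.24 in arrays labelled JUN, against 13.68 and 13.76 in those labelled -JUN. The Thy values were 13.35 and 13.41 in arrays labelled JUN, against 13.44 and 13.50 in those labelled -JUN, a separation of the groups with a difference of only -0.09 ± 0.28 (SE). Its average difference was -0.14 ± 0.16 (adjusted p = 0.668). A second probe set gave -0.78 ± 0.30 on average (adjusted p = 0.431 over the 26560 kept probe sets, each tested on its own, a test added after seeing the data), with 11.38 and 12.64 in SSC arrays labelled JUN, against 12.96 and 13.12 in those labelled -JUN. The size of the difference for this gene thus depended on the probe set, and the sign was the same in all 3 kept ones.

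Hspb1, a small heat shock protein also known as HSP25 that binds actin as well as unfolded proteins, was the gene of the 10 with the lowest unadjusted p for JUN. It was 12.19 and 11.90 in SSC arrays labelled JUN, against 11.69 and 10.91 in those labelled -JUN. In CSP it was 11.95 and 12.19 in arrays labelled JUN, against 11.12 and 11.71 in those labelled -JUN. In Thy it was 12.80 and 12.53 in arrays labelled JUN, against 12.14 and 11.95 in those labelled -JUN. Every JUN array exceeded every -JUN array of its population in all 3, a pattern that 356 genes (2.84% of those tested) showed. The differences were 0.75, 0.65 and 0.62 (SE 0.35 each), with adjusted p of 0.690, 0.995 and 0.985. The average was 0.67 ± 0.20 (SE, 1.60-fold, unadjusted p = 0.00697, adjusted p = 0.396) and did not pass. The second probe set gave 0.66 ± 0.20 on average with groups that did not overlap in any population. Over 13 alternatives the average lay between 0.46 and 0.76, with adjusted p of 0.131 to 0.9999, and none passed.

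Control probe sets were compared between the same arms. The mean of the poly-A spikes, bacterial RNAs added during labelling, was 11.28 and 9.98 in SSC arrays labelled JUN, against 8.50 and 9.12 in those labelled -JUN. It was 11.38 and 11.82 in CSP arrays labelled JUN, against 9.98 and 10.87 in those labelled -JUN, and 12.32 and 11.40 in Thy arrays labelled JUN, against 11.99 and 11.37 in those labelled -JUN. A single probe set of 18S ribosomal RNA was at 15.94 and 15.90 in SSC arrays labelled JUN, against 14.83 and 14.73 in those labelled -JUN. It was at 15.95 and 15.97 in CSP arrays labelled JUN, against 15.85 and 15.88 in those labelled -JUN. In Thy it was at 15.99 and 15.94 in arrays labelled JUN, against 15.98 and 15.94 in those labelled -JUN. The gap of about 1 was thus in SSC. With the poly-A mean as a covariate the average for Hspb1 was 0.46, and the median over the 10 genes was -0.15. All 9 tested genes of the skeletal muscle list (of 11 listed) were higher with JUN on average, by a median of 0.50, and none passed. In SSC 4 of the 9 were higher, with a median difference of -0.0023, where Hspb1 differed by 0.75. In CSP and Thy 9 of 9 were higher, with medians of 0.67 and 0.56. The mean of that list was 8.61 and 9.41 in SSC arrays labelled JUN, against 8.96 and 9.08 in those labelled -JUN. It was 8.97 and 9.80 in CSP arrays labelled JUN, against 8.76 and 8.72 in those labelled -JUN, and 9.56 and 9.49 in Thy arrays labelled JUN, against 9.09 and 8.63 in those labelled -JUN. The part of muscle cells in the values of Hspb1 was not tested.

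**Figure D3:**
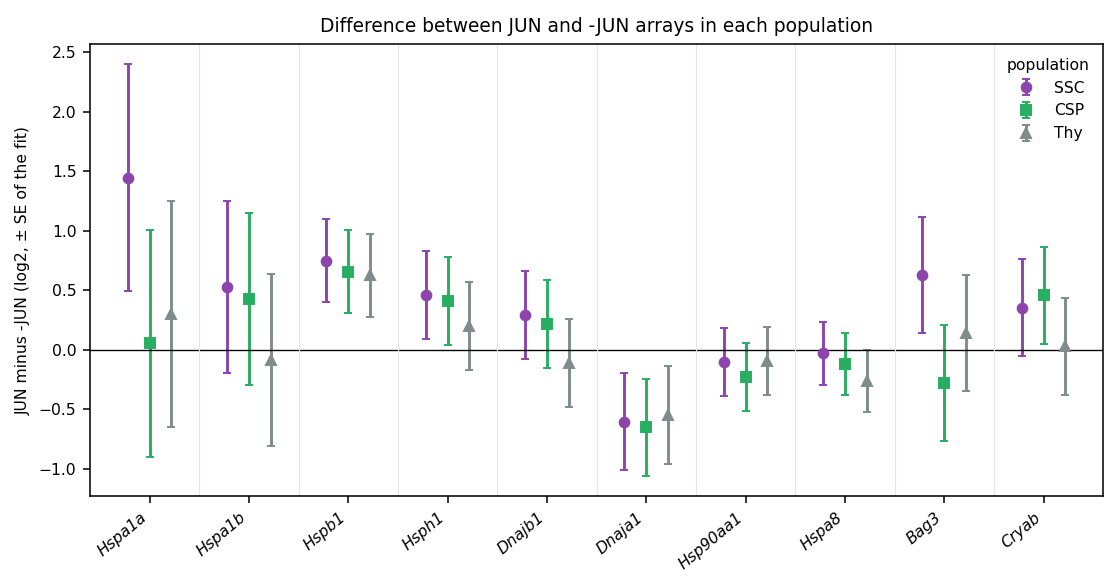
Difference between arrays labelled JUN and -JUN on the log2 scale (y axis) for the 10 genes (x axis) in SSC, CSP and Thy, with bars for the standard error of the limma fit. Hspb1 is above 0 by more than its standard error in all 3 populations and Dnaja1 below 0 by more than its standard error in all 3. None of the 30 differences passed the threshold.

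Between populations, Cryab was the only gene of the 10 that passed. It encodes alphaB-crystallin, a small heat shock protein abundant in lens and muscle. In SSC it was 11.44 and 11.39 in arrays labelled JUN and 10.65 and 11.48 in those labelled -JUN. The CSP values were 9.70 and 10.12 in arrays labelled JUN and 8.93 and 9.98 in those labelled -JUN. The Thy values were 10.99 and 11.14 in arrays labelled JUN and 11.22 and 10.85 in those labelled -JUN. All 4 CSP arrays lay below all 8 others. For each pair of populations alone, the arrays were separate for 2.2% of all genes as higher in SSC than in CSP. As lower in CSP than in Thy they were separate for 4.29%. The share of genes with both was not counted.

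The 4 SSC arrays averaged 11.24 ± 0.39 and the 4 CSP arrays 9.68 ± 0.53 (SD), a difference of 1.56 ± 0.26 (SE, 2.95-fold, adjusted p = 0.0263), where 0.431% of all genes passed and 0.384% as higher. The CSP arrays were lower than the 4 Thy arrays, which averaged 11.05 ± 0.16, by a difference of -1.36 ± 0.26 (adjusted p = 0.0326), where 0.991% of all genes passed and 0.903% as lower. SSC and Thy differed by 0.20 ± 0.26 (adjusted p = 0.698), in a comparison where 0.391% passed. With the mouse as a block, as the populations share animals, SSC minus CSP was 1.497 with adjusted p = 0.132 and no longer passed, and CSP minus Thy was -1.36 with adjusted p = 0.0441. With the date in the title as a covariate, which sets SSC by the array of mouse 4, SSC minus CSP was 1.63 ± 0.44 with adjusted p = 0.194. Over 8 alternatives the adjusted p lay between 0.0263 and 0.194 for SSC minus CSP and between 0.0172 and 0.191 for CSP minus Thy. With 1 of the 12 arrays left out in turn, SSC minus CSP passed in 7 fits (adjusted p = 0.0240 to 0.110) and CSP minus Thy in 5 (0.0336 to 0.124). Without mouse 4 neither passed (adjusted p = 0.124 for each), and without mouse 3 the difference between CSP and Thy did not (adjusted p = 0.191). The second kept Cryab probe set gave 1.498 ± 0.29 for SSC minus CSP (adjusted p = 0.0648 over all kept probe sets) and -1.59 ± 0.29 for CSP minus Thy (adjusted p = 0.0321).

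Markers of Schwann cells, the myelinating glia of peripheral nerves, were measured in the same arrays. Of the 6 listed, 4 were tested, all 4 were higher in SSC than in CSP, and Mbp and Sox10 passed there and as lower in CSP than in Thy. The mean of the 4 was 11.41 to 11.83 in SSC arrays, 9.58 to 9.95 in CSP arrays and 10.03 to 11.98 in Thy arrays. Mbp, a myelin protein, was 11.81 to 13.01 in SSC, 7.29 to 8.41 in CSP and 9.05 to 12.76 in Thy. Sox10, a transcription factor of the Schwann cell lineage, was 9.70 to 11.49 in SSC, 6.66 to 8.30 in CSP and 10.58 to 11.10 in Thy. S100b and Pmp22 did not separate CSP from the others, and 1 of the 4, S100b, was higher in CSP than in Thy. S100b was 9.39 to 10.16 in SSC, 8.17 to 10.77 in CSP and 7.17 to 10.05 in Thy. Pmp22 was 13.84 to 14.05 in SSC, 13.43 to 13.92 in CSP and 13.31 to 14.00 in Thy. Over the 12 arrays, which share animals and populations, Cryab and the mean of the 4 were correlated (r = 0.82, a description with no p). Both were lowest in the CSP arrays, so this r in part restates the population difference. In Thy, Cryab stayed at 10.85 to 11.22 while the mean of the 4 ran over 10.03 to 11.98. The smooth muscle and pericyte list averaged 10.67 to 11.57 in SSC, 10.09 to 10.60 in CSP and 11.23 to 11.76 in Thy, and 3 of its 7 genes passed as lower in CSP than in Thy. In the skeletal muscle list 5 of 9 tested genes were higher in SSC than in CSP, with a median of 0.04. Of the same 9, 6 were higher in CSP than in Thy, with a median of 0.04, and 1 passed as lower. The part of any of these cell types in the Cryab differences was not tested.

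**Figure D4:**
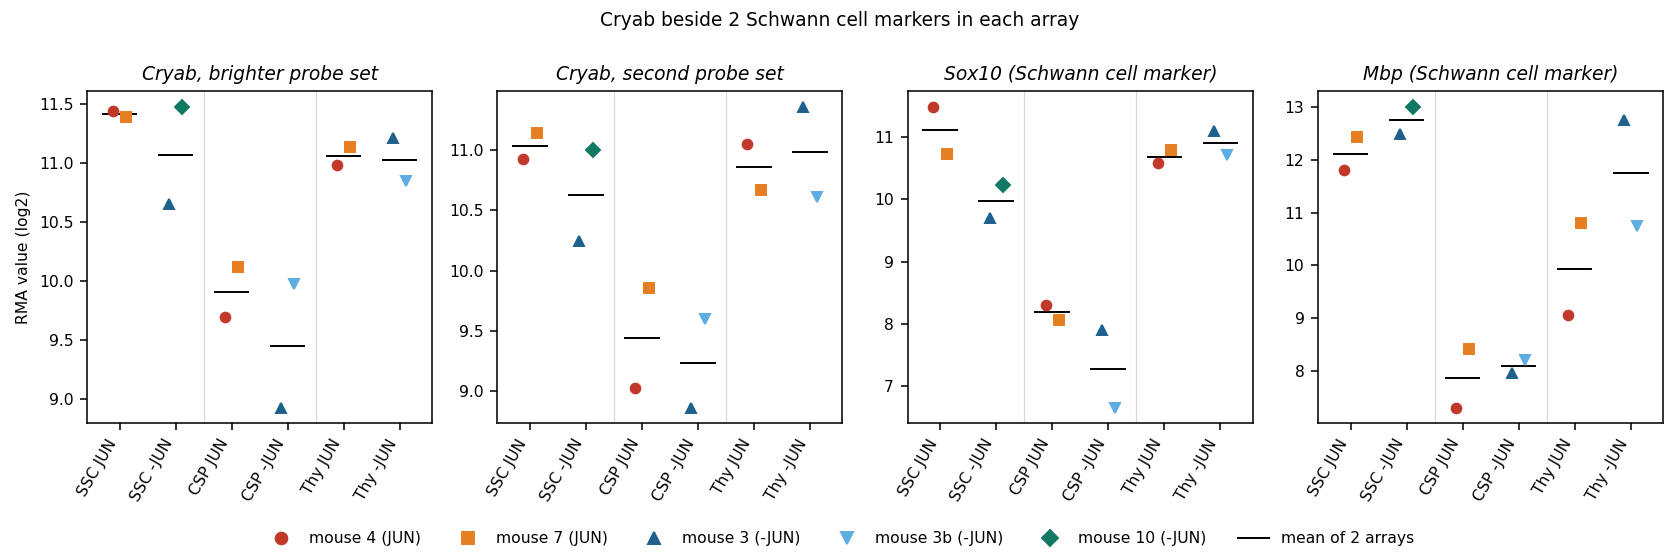
RMA value on the log2 scale (y axis, a separate range in each panel that does not start at 0) of both kept Cryab probe sets and of Sox10 and Mbp in the 6 groups (x axis). Symbols are arrays, coloured by mouse, and lines are means of 2 arrays. In all 4 panels every CSP array lies below every SSC and Thy array. Sox10 and Mbp are the 2 of the 4 tested Schwann cell markers that passed. The others, S100b and Pmp22, are not shown and did not separate CSP from SSC and Thy.

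The other 9 genes did not pass between populations. Hspb1 averaged 11.67 ± 0.55 in SSC, 11.74 ± 0.46 in CSP and 12.35 ± 0.39 in Thy (SD, n = 4 each). Its differences from Thy were -0.68 ± 0.22 for SSC (SE, unadjusted p = 0.00864, adjusted p = 0.167) and -0.61 ± 0.22 for CSP (unadjusted p = 0.0155, adjusted p = 0.288), and the arrays overlapped in both. SSC and CSP differed by -0.07 in this gene, less than its spread. Bag3 averaged 9.57 ± 0.66 in SSC, 10.25 ± 0.25 in CSP and 10.16 ± 0.52 in Thy (SD, n = 4 each), and SSC minus CSP was -0.67 ± 0.34 (SE, adjusted p = 0.815). Hspa1a averaged 9.02 ± 1.62 in SSC, 9.93 ± 0.84 in CSP and 9.89 ± 0.56 in Thy (SD, n = 4 each), with its widest spread in SSC. With the date in the title as a covariate SSC minus CSP turned sign for Hspa1a (1.38), Dnajb1 (0.30) and Bag3 (0.27). The median difference over the 10 genes was -0.18 for SSC minus CSP, -0.08 for SSC minus Thy and 0.09 for CSP minus Thy, beside -0.05, -0.09 and -0.04 over all genes. With that covariate the first was 0.28 and the second 0.29.

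The 10 genes were set beside the immediate early genes by array after their values were seen. The mean of the 10 genes was 12.26 in the SSC, 12.10 in the CSP and 11.99 in the Thy array of mouse 4, a JUN animal. It was 11.83 in the CSP and 12.01 in the Thy array of mouse 3b, a -JUN animal. The other 7 arrays lay between 11.41 and 11.72, below these 5. The median deviation of the 10 genes was also highest in these 5, at 0.10 to 0.47, beside -0.23 to 0.03 in the other 7. Not every gene followed the mean, to which Hspa1a and Hspa1b gave 1.31 to 1.74 in the SSC and CSP arrays of mouse 4. In the SSC and Thy arrays of mouse 4, Dnaja1 (12.05 and 11.63) and Hsp90aa1 (13.10 and 13.35) were the lowest of their population. Hspa8 (14.09) was the lowest in its Thy array. The same 5 arrays were the 5 highest for the mean of 15 immediate early genes (Fos, Egr1, Atf3 and others that are transcribed within minutes of many stimuli), at 13.43 to 13.76, while the other 7 lay at 12.71 to 13.37. The 3 SSC arrays with dated titles were the 3 lowest, at 12.71 to 12.93. Of the 5, 3 are the arrays with high chondrocyte genes given above. Leaving Jun out of that list kept the same 5 arrays on top. The part of either list in the values of the heat shock genes was not tested.

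Over the 12 arrays, which come from 5 mice, Hspa1a was correlated with Bag3 (r = 0.87), Dnajb1 (r = 0.79) and Hspa1b (r = 0.72). Probe sets of Hspa1a and Hspa1b can each read both copies. Hspb1 and Dnaja1 ran against each other (r = -0.82). Cryab was negatively correlated with Hsp90aa1 (r = -0.67). These values describe 12 arrays that share animals and carry no p.

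**Figure D5:**
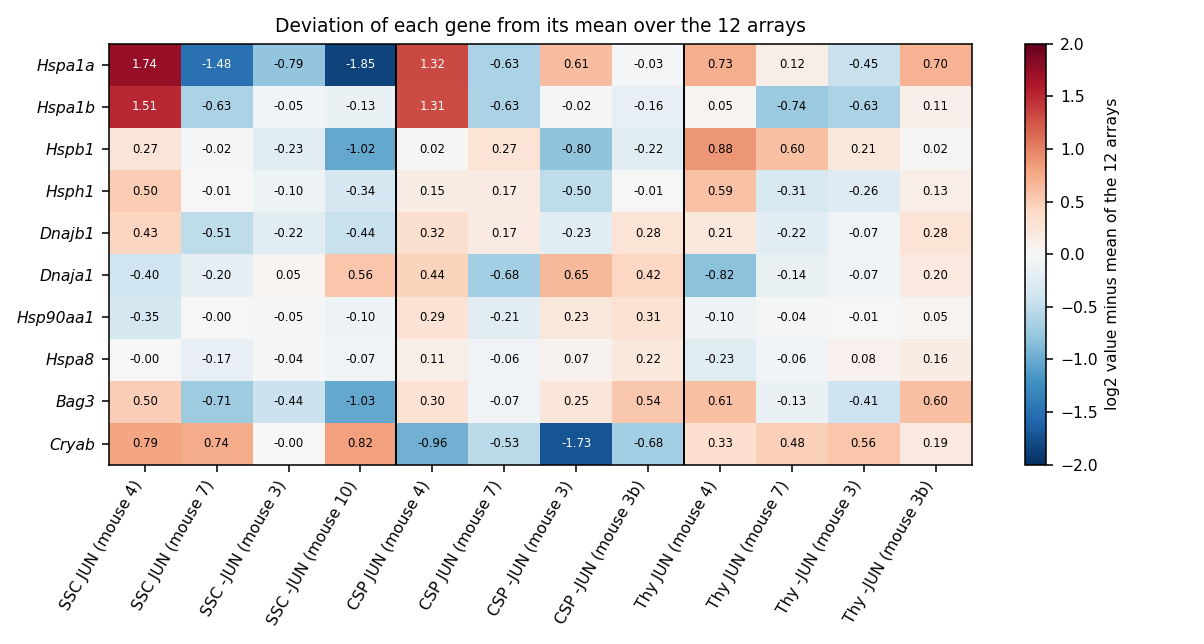
Deviation of each gene's log2 value from its mean over the 12 arrays (colour and printed value) for the 10 genes (rows) and the arrays, named by population, label and mouse (columns). Hspa1a and Hspa1b are at 1.31 to 1.74 in the SSC and CSP arrays of mouse 4, and Cryab is at -0.53 to -1.73 in the CSP arrays.

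Among the other genes tested, those most like the mean of the 10 over the 12 arrays were Arhgef19 (r = 0.96), Fry (r = 0.95), Hexim1 and Runx1 (r = 0.93 each), Arc, Nt5dc3, Cdkn1a and Cspg4 (r = 0.92 to 0.93). The most opposite were Polr3f (r = -0.93), Dusp12, Znhit3 and Zfp955b (r = -0.91 each). Of the patterns added after seeing the data, the gene most like Hspa1a was Nt5dc3 (r = 0.97), and the one most like Cryab was Cnp, a myelin enzyme (r = 0.96).

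Related chaperones gave no call for JUN either. Of the small heat shock proteins outside the 10, 5 of 8 were tested, 4 of 5 were higher with JUN on average, and their median was 0.45. Among them Hspb7, known from heart and skeletal muscle and dim at a mean of 8.07, had a difference of 1.01 ± 0.21 (SE, unadjusted p = 0.000732, adjusted p = 0.396). Hspb6, known from muscle, had 1.12 ± 0.33 (unadjusted p = 0.00696, adjusted p = 0.396). Its mean of 7.34 lay below the array medians (7.65 to 7.76), and the filter needed only 2 arrays above them. High JUN arrays alone may have carried Hspb6 through the filter, so its p-value is no support for a JUN difference. In SSC Hspb7 and Hspb6 differed by 0.75 ± 0.37 and 1.08 ± 0.58, in CSP by 1.33 and 1.26 and in Thy by 0.95 and 1.01. In the skeletal muscle list 4 of 9 genes were higher in SSC and 9 of 9 in CSP and in Thy, and its part in these values was not tested. Of the BAG and nucleotide exchange factors 7 of 8 were higher, with a median of 0.39, and Hspbp1, which releases nucleotide from HSP70, had 0.71 ± 0.21 (adjusted p = 0.396). Of the HSP90 co-chaperones 7 of 10 tested were higher, with a median of 0.27. Among these Fkbp4, a partner of HSP90 in steroid receptor complexes, had 0.48 ± 0.20 and Cdc37, its kinase adaptor, 0.47 ± 0.19 (adjusted p = 0.396 each).

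Other chaperone groups had medians at or below 0. Of the DNAJ co-chaperones outside the 10, 10 of 16 were lower with JUN on average, with a median of -0.23. Dnajb4, an HSP40 of the same type as Dnajb1, had -0.62 ± 0.27, and Dnajc10, a disulfide reductase of the endoplasmic reticulum, -0.54 ± 0.20 (adjusted p = 0.396 each). The other HSP70 and HSP110 genes had 6 of 8 lower and a median of -0.14, the TRiC chaperonin, which folds actin and tubulin, had 5 of 8 lower and -0.08, and the mitochondrial chaperones and proteases had 6 of 11 lower and -0.10. The endoplasmic reticulum chaperones had 8 of 14 lower and a median of -0.03. None of these genes passed. The median over all genes was 0.07, with 57.06% of them higher.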

How the data were processed

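Total RNA of FACS-sorted cells was measured on 12 arrays of 1 colour. The authors deposited log2 values that, per the submitters' processing notes, were made with RMA. No source used here gives its version, the array software or a genome build. Of 45037 probe sets other than controls, 34945 carry 1 gene symbol, 932 several and 9160 none in the platform annotation. A probe set was kept when it exceeded its array's median (7.65 to 7.76) in at least 2 arrays, and the kept probe set with the highest mean stood for its gene (21 of the 26 probe sets of the 10 genes were kept).

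The fits used lmFit and eBayes of limma 3.58.1 (R 4.3.3), with 6 group means for JUN (6 residual degrees of freedom), and population plus arm for populations (8), and Benjamini-Hochberg adjustment over all genes. The replicate numbers and titles put the arrays of a number within an arm in the same mouse, so the mouse pairs populations. For mice 3 and 7 this joins dated SSC titles to CSP and Thy titles with no date. Deviations from the group means correlated between arrays of the same mouse at -0.21 to 0.43. JUN and -JUN arrays share only a number.

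The 10 genes, the companion lists and the markers were chosen with earlier results of these data known. Named genes are the 10, up to 4 genes of lowest p from a list, and the 8 most like and 4 most opposite genes by r. The erythroid list had 0 of 5 genes tested. The heat shock factor list had 1 of 4, Hsbp1 (average JUN difference 0.18), which encodes a heat shock factor binding protein. The factors themselves, Hsf1, Hsf2 and Hsf4, were not tested. The motifs were searched with Python 3.11.15 and the windows aligned with Biopython 1.88. Alternatives changed the filter, the normalization, the probe set rule, the poly-A covariate, the block and the arrays or mice used. Tests of each probe set alone, the date in the title as a covariate, fits without mouse 4 within or between populations, and likeness to single genes were added after seeing the data.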

Additional observations from a re-analysis of the deposited data

Results flagged for a closer look

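Each of the 10 genes was examined in each population for an array that stands apart from the other 3, by Dixon's critical value, which chance passes in about 1 in 20 groups, and 2 of 30 groups had one. In CSP, Hsp90aa1 was 13.24 in the JUN array of mouse 7, against 13.68 for the nearest of the others, a gap of 0.8424 of the whole range. In SSC, Cryab was 10.65 in the -JUN array of mouse 3, against 11.39 for the nearest of the others, a gap of 0.8945 of the range.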

How the results depend on the processing

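Adding the poly-A mean as a covariate gave member medians of -0.023 in SSC, -0.13 in CSP and -0.15 for the average JUN effect. It turned the sign of Hsph1 (-0.19 in SSC, -0.011 in CSP, -0.023 on average), Dnaja1 in SSC (0.0014), Cryab (-0.032 in CSP, -0.16 on average), Dnajb1 between SSC and CSP (0.11) and Hspa1a between SSC and Thy (0.19). It left 0 genes called between SSC and Thy (779 at an unadjusted p under 0.05 in limma), and 46 between CSP and Thy with 0 of the 10, where Cryab was -1.11 (adjusted p = 0.183). With the date in the title as a covariate, which leaves the SSC array of mouse 4 to set SSC, the medians were -0.048 for JUN in SSC, -0.031 on average, 0.28 for SSC minus CSP and 0.29 for SSC minus Thy. Hspa1a was then -0.17 for JUN in SSC, 1.38 for SSC minus CSP and 1.42 for SSC minus Thy, Bag3 was 0.27 and 0.35 in those, and Dnajb1 was 0.30 for SSC minus CSP. It left 23 genes called for SSC against CSP, with 0 of the 10 (2 unadjusted), and 10 for SSC against Thy. Without mouse 4 the medians were -0.048 in SSC, -0.34 in CSP and -0.16 on average, Hspa1a was -0.17 in SSC and -0.36 on average, and 2 genes were called for JUN in CSP. Without mouse 4, 0 of the 10 were called between SSC and CSP or between CSP and Thy (3 and 1 unadjusted), and 85 genes were called between SSC and Thy. Without mouse 7 the average median was 0.47, with 495 genes and 2 of the 10 called. Without mouse 3, 34 genes were called for SSC against CSP, 3 for SSC against Thy and 17 for CSP against Thy, the last with 0 of the 10 (1 unadjusted). With the mouse as a replicate block, 8 genes were called between SSC and CSP with 0 of the 10 (1 unadjusted), and 4 between SSC and Thy. SSC against Thy had 24 genes called with no filter, 74 with median centring and 75 with the mean of probe sets. The cause of these changes was not tested.

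Leaving out 1 array gave 0 to 1 genes called for JUN in SSC, 17 to 62 for SSC against CSP, 4 to 304 for SSC against Thy and 52 to 155 for CSP against Thy. It left 0 to 1 of the 10 called for SSC against CSP and for CSP against Thy. The medians ranged over -0.048 to 0.74 in SSC, -0.34 to 0.27 in CSP, -0.28 to 0.21 in Thy, -0.031 to 0.33 on average, -0.31 to -0.12 for SSC minus CSP, -0.15 to -0.056 for SSC minus Thy and -0.048 to 0.19 for CSP minus Thy. Hspa1a in SSC ranged over -0.17 to 3.06 and Cryab in CSP over -0.068 to 0.98. Single-gene values were followed for the 30 of 70 differences that reached their standard error, a limit chosen after seeing the data. Among them 16 of 253 recomputed values changed sign under other alternatives and 2 of 360 without 1 array. Among the other 40, 59 of 327 and 48 of 480 did, and 0 called values did. For JUN the replicate number was also run as a replicate block, and it marks no shared animal; numbers correlated at 0.51 in SSC, -0.10 in CSP and -0.18 in Thy.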
